A study of Mus musculus with 19 samples.

Results

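The comparison described here set mice that carried the tetracycline transactivator, tTA, against mice that lacked it, in the dorsal hippocampus of experiment 2. Its members were 8 of the 19 libraries of the series, chosen by the experiment and tTA genotype in the labels: 5 tTA+ and 3 tTA- libraries. All 8 came from male C57BL/6J mice without DN, the dominant-negative Nr4A transgene of the study, at 2 to 4 months of age. The tTA+ group held 3 libraries of mice exposed to SOR, a condition the labels give by abbreviation only, and 2 of homecage mice, while the tTA- group held 1 SOR and 2 homecage libraries. The 11 libraries of experiment 1, all tTA+ and all SOR, 6 of them controls without DN and 5 with DN, served to read levels and entered 1 alternative fit. Labels do not name the promoter that drives tTA, and nothing in them says whether a library is 1 animal, so p-values measure the spread between these libraries.

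As background, tTA joins a bacterial repressor domain to a viral activation domain and switches on a transgene placed behind tet operator sites. It is used in pairs of lines, one supplying tTA in chosen neurons and the other the responder. A widely used forebrain line puts tTA under the Camk2a promoter, which is active in excitatory neurons of the hippocampus, granule cells of the dentate gyrus among them. That line is known for a transgene insertion on chromosome 12 and, on some strains, for changes in the dentate gyrus. Here no responder was present, so every library compared holds tTA or nothing of the pair.

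Libraries held 22258159 to 66991576 counts, with the least, and the fewest genes detected (27815 against 30165 to 32495), in tTA+ SOR 3. Values below are CPM, counts relative to the library total, scaled by the trimmed mean of M-values (TMM), and fold changes come from edgeR's quasi-likelihood test with exposure as a covariate and Benjamini-Hochberg adjustment over 22904 genes. Choroid plexus markers, 8 of 8 detected, summed to 2191 CPM in tTA+ SOR 2 and 984 CPM in tTA- SOR 1, and to 23.4 to 173 CPM in the other 6. Their part in the results was not tested, although a fit with that score as a covariate kept 82 of 82 calls.

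Genes of several kinds differed between the groups. At an adjusted p under 0.05, 25 genes were higher in tTA+ hippocampus (0.109% of those tested) and 57 were lower (0.249%), together 0.358%. The 25 higher genes ranged from 0.54 to 5.35 in log2 fold change, with 16 of them past 2-fold, and the 57 lower genes from -0.46 to -2.78, with 29 past 2-fold. The median over all genes tested was 0.01. At an unadjusted p under 0.05, 2.27% of genes were higher and 3.44% lower, and for 2.54% and 3.27% the 5 tTA+ libraries lay all above or all below the 3 tTA- libraries. Such separation held for 25 of the 25 genes called higher and 56 of the 57 called lower, the exception being Tnfrsf25. Protein-coding genes made up 75 of the 82.

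**Figure D1:**
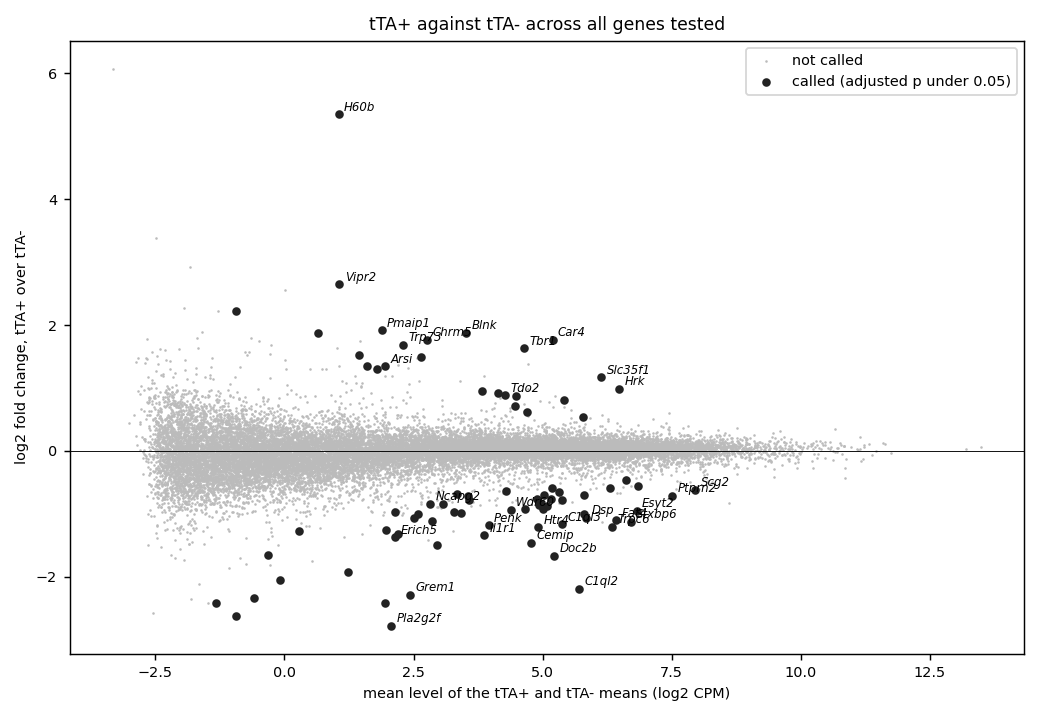
Log2 fold change of tTA+ over tTA- against mean level (log2 CPM) for the 22904 genes tested, 1 point a gene. The 82 called genes are black: 25 lie above 0 and 57 below, at levels from low to high, and most genes lie close to the line at 0.

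Pmaip1 was the 1 higher member of the list of p53 targets and cell death genes, and Hrk and Trp73, which are not on that list, were among the 12 higher genes with the smallest p. Pmaip1, which encodes the BH3-only protein Noxa, read 1.21, 1.94 and 1.38 CPM in tTA- homecage 1, SOR 1 and homecage 2, and 5.49, 6.70, 6.14, 5.23 and 5.82 CPM in tTA+ SOR 2, homecage 3, SOR 3, homecage 4 and SOR 4. The lowest tTA+ library exceeded the highest tTA- library. The log2 fold change of 1.92 ± 0.19 (SE) had an adjusted p of 0.00224. Hrk, another BH3-only gene, read 61.3, 60.2 and 60.03 CPM without tTA and 136, 125, 103, 121 and 108 CPM with it, in the same order of libraries. That gave 0.99 ± 0.11 and an adjusted p of 0.00379, again with no overlap.

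Trp73, a relative of the tumour suppressor p53, rose with them: 2.35, 1.84 and 3.12 CPM against 8.23, 7.79, 7.42, 7.66 and 5.92 CPM, a log2 fold change of 1.68 ± 0.19 (adjusted p = 0.0049). Without tTA- SOR 1 its adjusted p was 0.108, and that of Hrk was 0.0771. The list of p53 targets and cell death genes did not move as a whole. Of its 13 members, Pmaip1 alone was called and the median log2 fold change was -0.04. Trp53 itself stood at -0.02, Cdkn1a, the p21 inhibitor of the cell cycle, at -0.26, Bbc3, which encodes Puma, at 0.08 and Bax at 0.04.

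H60b, which encodes a ligand of the natural killer cell receptor NKG2D, was near 0 without tTA. It read 0, 0.165 and 0.0938 CPM in the 3 tTA- libraries and 3.94, 4.60, 3.61, 4.29 and 3.81 CPM in the tTA+ libraries. Every tTA+ library was far above every tTA- library, and the fitted log2 difference of 5.35 ± 0.42 depends on how the near-absent group is handled (adjusted p = 0.000494). Only 2 of the 5 NKG2D ligands passed the filter on low counts, and the other, Ulbp1, stood at 0.69 and was not called. No interferon or antigen presentation gene was called among 13 (median -0.07), nor any of 12 microglial (median 0.14) or 9 activated microglial genes (median 0.09).

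Genes of other kinds were also higher. Car4, a membrane-bound carbonic anhydrase, stood apart from its family: 18.3, 16.3 and 15.0 CPM against 63.3, 50.3, 55.0, 57.9 and 56.8 CPM, while none of the other 12 carbonic anhydrases tested was called. Blnk, an adaptor protein of B-cell receptor signalling, read 4.71 to 4.89 CPM without tTA and 16.1 to 21.6 CPM with it. Chrm5, the M5 muscarinic acetylcholine receptor, rose from 2.04, 3.74 and 3.09 CPM to 11.3, 8.31, 9.70, 11.7 and 11.7 CPM, a log2 fold change of 1.77 ± 0.20 (adjusted p = 0.00379). Slc35f1, of the nucleotide sugar transporter family, was 41.0 to 45.9 CPM against 69.6 to 113 CPM (1.17 ± 0.14, adjusted p = 0.00594). Arsi, an arylsulfatase, was 2.11 to 2.15 CPM against 4.91 to 7.09 CPM (1.35 ± 0.17, adjusted p = 0.00852).

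**Figure D2:**
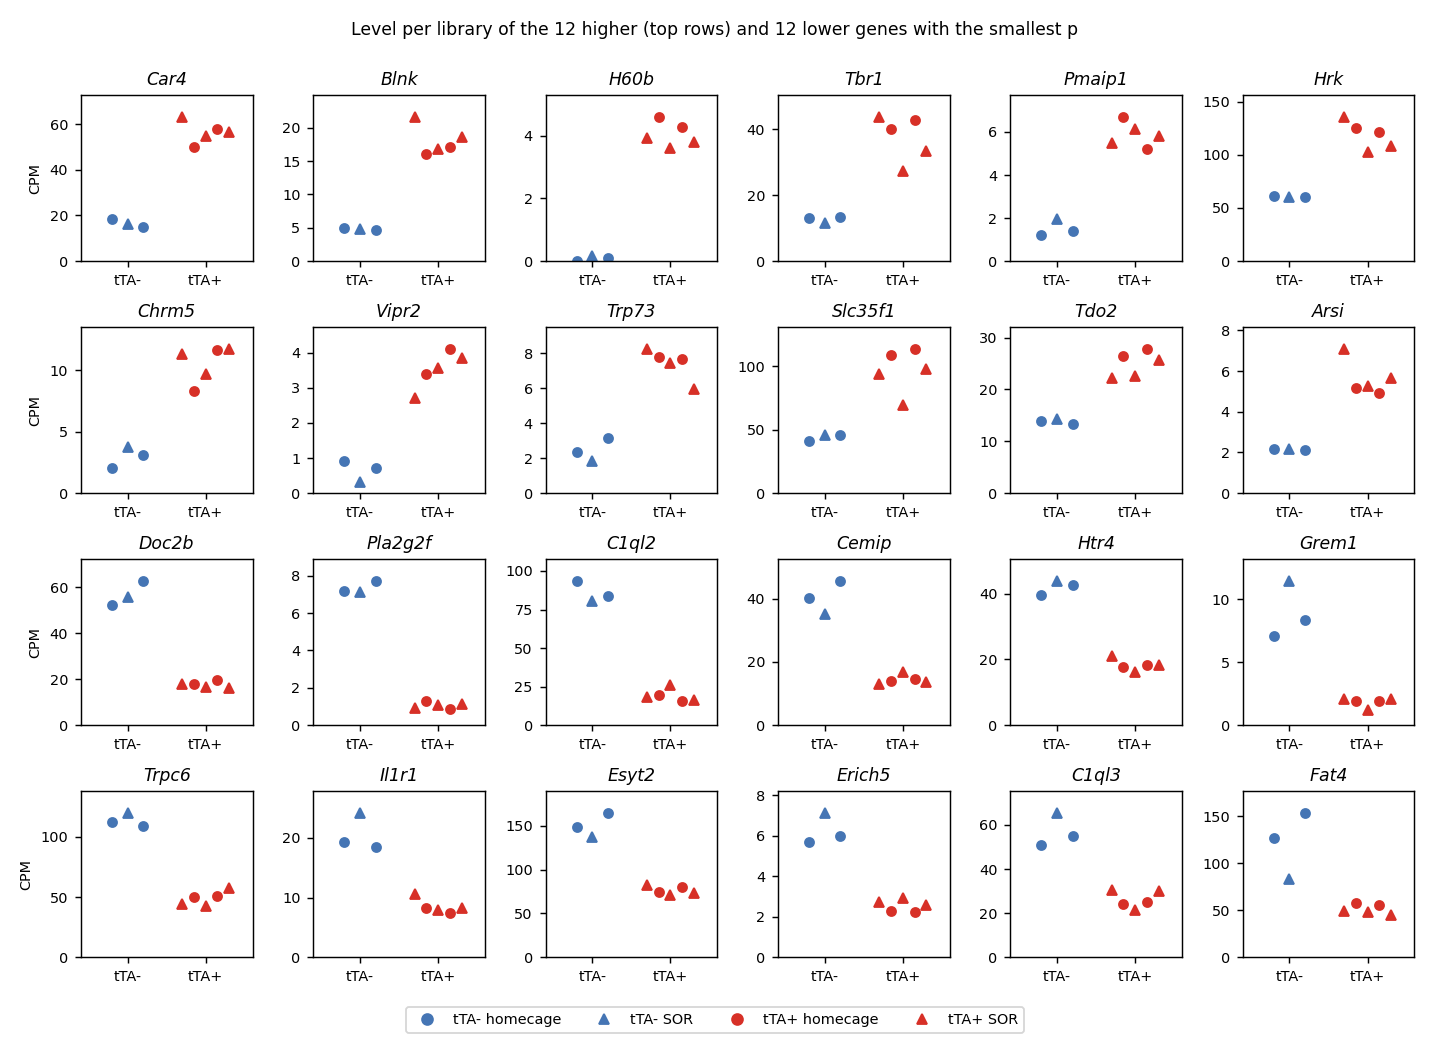
CPM of each library for the 12 higher and 12 lower genes with the smallest p among those without overlap, tTA- in blue and tTA+ in red, circles for homecage and triangles for SOR. In every panel the 5 tTA+ libraries lie on 1 side of the 3 tTA- libraries.

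Tbr1, a transcription factor of excitatory neurons of neocortex and other forebrain regions, was 13.1, 11.5 and 13.3 CPM without tTA and 43.7, 40.1, 27.4, 42.7 and 33.3 CPM with it (1.63 ± 0.15, adjusted p = 0.00117). The other 7 genes of the neocortex and subiculum list were not called, with Rorb at 0.01, Fezf2 at -0.19 and Cux2 at 0.45. Summed over the list, levels were 126 to 140 CPM in tTA- and 142 to 167 CPM in tTA+ libraries. Without Tbr1 the sums overlapped, at 114 to 127 CPM and 109 to 124 CPM.

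Several markers of dentate granule cells were lower. Of 12 markers of dentate granule cells, the excitatory neurons that receive the cortical input, 6 were lower and 1 was higher, against 0.249% and 0.109% of all genes, and the list's median was -0.77. Their summed level was 932, 952 and 997 CPM in tTA- homecage 1, SOR 1 and homecage 2, and 695, 597, 561, 602 and 616 CPM in tTA+ SOR 2, homecage 3, SOR 3, homecage 4 and SOR 4. No tTA+ library reached the lowest tTA- library. The 6 genes called lower are part of these sums, and sums of the other members alone were not taken. So the separation does not show that the list fell as a whole. The markers were chosen with earlier results of these data known, so their counts beside all genes describe the list and give no independent support. In bulk tissue, fewer granule cells and less RNA per granule cell cannot be told apart.

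C1ql2 and C1ql3 encode secreted C1q-like proteins that granule cells release at mossy fibre synapses. C1ql2 read 93.5, 80.8 and 83.6 CPM against 18.01, 19.6, 26.3, 15.7 and 16.2 CPM, and C1ql3 51.0, 65.4 and 54.9 CPM against 30.7, 24.2, 21.5, 25.2 and 30.2 CPM. The fall was 4.58-fold for C1ql2 (adjusted p = 0.000316) and 2.24-fold for C1ql3 (adjusted p = 0.003). A transcript still to be experimentally verified, Gm37824, lies on the opposite strand across part of C1ql3 and fell by 1.496 on the log2 scale. Strand handling was not given in the sources used here, so its reads cannot be told apart from those of C1ql3. The other 12 secreted synaptic organizers tested were not called, among them the cerebellins Cbln1 (0.17), Cbln2 (0.18) and Cbln4 (-0.04).

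Trpc6, a cation channel gated by diacylglycerol, fell from 112, 120 and 109 CPM to 44.2, 50.1, 42.8, 50.6 and 57.8 CPM (-1.21 ± 0.11, adjusted p = 0.00117). Stxbp6, which encodes the SNARE-binding protein amisyn, fell from 139 to 147 CPM to 43.7 to 77.2 CPM (-1.13 ± 0.16, adjusted p = 0.0145). For Dsp, a desmosomal plaque protein, the fall was from 68.9 to 91.1 CPM to 32.2 to 48.4 CPM (-1.06 ± 0.16, adjusted p = 0.0191). Glis3, a zinc-finger transcription factor, went from 37.8 to 41.9 CPM to 16.6 to 23.2 CPM (-0.87 ± 0.12, adjusted p = 0.0139).

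Other dentate markers were not called lower. Prox1, the transcription factor that specifies granule cells, read 110, 94.8 and 131 CPM against 92.4, 70.9, 48.8, 68.1 and 61.0 CPM, without overlap but with an adjusted p of 0.35 at -0.67 ± 0.18. Calb1, for the calcium buffer calbindin, stood at -0.40, Lct at -0.01 and Pdzd2 at 0.38, none of them called. Tdo2, which encodes tryptophan dioxygenase and is a marker of mature granule cells, was higher: 13.9, 14.2 and 13.3 CPM against 22.2, 26.5, 22.6, 27.8 and 25.7 CPM (0.88 ± 0.11, adjusted p = 0.00656). So members of the list went in both directions. Without tTA- SOR 1, 1 member was called lower, C1ql2, and in 4 of the other fits that left out 1 library 3 were.

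Lists of other hippocampal cell types held few called genes. None of the markers of CA1 (6), CA2 (6), hilar mossy cells (4), adult neurogenesis (9), forebrain excitatory neurons (8) or GABAergic interneurons (12) was called, with medians of 0.01, -0.20, 0.46, 0.02, -0.04 and 0.12. The interneuron markers summed to 1329 to 1371 CPM in tTA- and 1381 to 1497 CPM in tTA+ libraries, higher without overlap. The mean log2 CPM of the same markers, each centred on its mean over the 8 libraries, overlapped between the groups, with tTA+ SOR 2 at -0.053 and tTA- SOR 1 at -0.025. Of the 40 lists, 4 had sums higher in every tTA+ library: GABAergic interneurons, neocortex and subiculum, NKG2D ligands and carbonic anhydrases. In 5 the sums were lower in every one: dentate granule cells, CA3, the chromosome 12 genes, serotonin receptors, and VIP and PACAP. Of all genes tested, 2.54% and 3.27% separated in these directions. A sum can follow 1 called member, as for Tbr1 above and Npy2r below. The only called member of the VIP and PACAP list, Vipr2, was higher. Among 7 markers of CA3, Npy2r, the Y2 receptor of neuropeptide Y, was lower: 84.8, 64.6 and 78.7 CPM against 29.6, 39.6, 31.2, 37.9 and 41.4 CPM (-1.01 ± 0.12, adjusted p = 0.00594). The CA3 list summed to 370 to 392 CPM in tTA- and 323 to 351 CPM in tTA+ libraries, without overlap, at a median of -0.21. Without Npy2r the sums overlapped, at 296 to 307 CPM and 283 to 320 CPM. Astrocytes, oligodendrocytes, their precursors, endothelium, pericytes, meninges and blood had no called marker, with medians from -0.10 to 0.19. From the thalamus list Ntng1, a synaptic adhesion gene, fell from 35.5 to 46.7 CPM to 16.8 to 25.0 CPM (adjusted p = 0.0167), and the other 6 were not called.

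**Figure D3:**
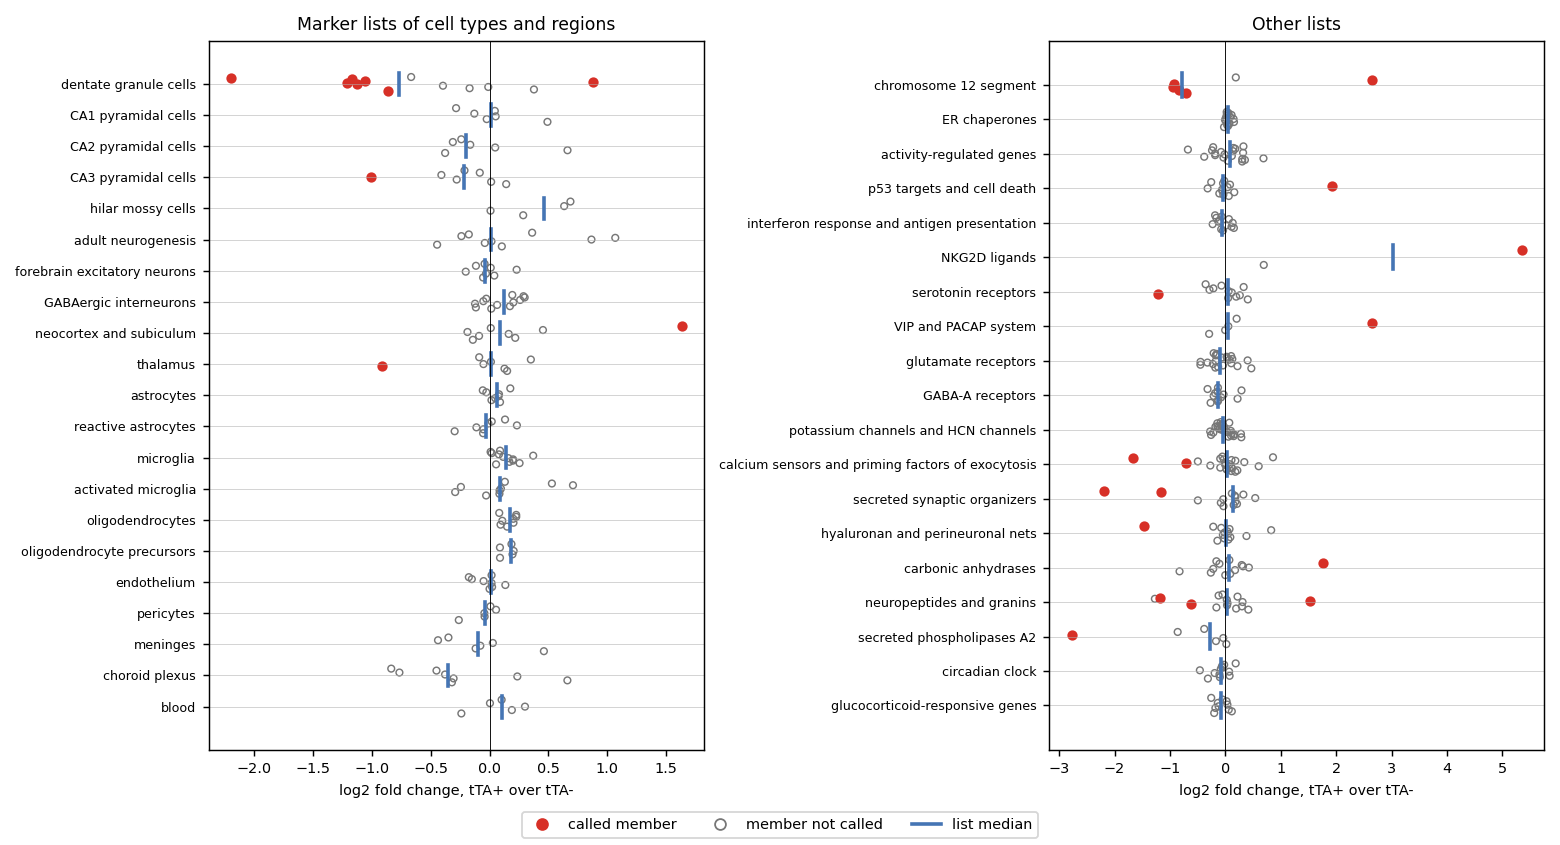
Log2 fold change of each tested member of the 40 lists, red where called, grey where not, with the list median as a blue bar. The dentate granule cell and chromosome 12 lists have medians of -0.77 and -0.78, and 13 of the other 38 lists hold a called member, 10 of them a single one; the list of NKG2D ligands had 2 tested members.

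Single genes of synaptic signalling were lower. Doc2b, a calcium sensor of vesicle release, read 52.2, 55.8 and 62.6 CPM against 18.03, 17.9, 16.4, 19.5 and 16.2 CPM, and Syt10, of the synaptotagmin family of vesicle calcium sensors, 13.1, 16.8 and 12.8 CPM against 9.95, 7.90, 11.4, 7.44 and 10.4 CPM. Their log2 fold changes were -1.66 ± 0.10 (adjusted p = 0.000142) and -0.72 ± 0.11 (adjusted p = 0.0192). The other 21 of 23 genes of calcium sensing and vesicle priming were not called, with Syt1 at -0.06, Syt7 at -0.50 and Doc2a at 0.86. Syt17, a synaptotagmin outside that list and named after its values were seen, fell by 0.78 (adjusted p = 0.00594). Htr4, a serotonin receptor coupled to cyclic AMP, was 39.5 to 43.8 CPM against 16.0 to 20.9 CPM, and 11 further serotonin receptors, Htr1a (-0.36) and Htr7 (0.40) among them, were not called. No glutamate receptor (22, median -0.10), GABA-A receptor (12, median -0.14) or listed potassium or HCN channel gene (27, median -0.05) was called. Kcng1, a modifier subunit of voltage-gated potassium channels that was not on that list and is named after its values were seen, fell by 0.97 (adjusted p = 0.0434).

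Neuropeptide genes went both ways. Penk, the precursor of the enkephalins, read 21.3, 20.9 and 22.5 CPM against 6.68, 11.6, 11.99, 7.10 and 10.1 CPM (-1.18 ± 0.20, adjusted p = 0.0414). Scg2, the granin secretogranin II, read 300, 312 and 284 CPM against 173, 189, 229, 192 and 212 CPM (-0.61 ± 0.10, adjusted p = 0.0341). Tac2, the neurokinin B precursor, was higher, 1.03 to 1.59 CPM against 3.40 to 5.99 CPM (1.52 ± 0.24, adjusted p = 0.0299). Pdyn, the dynorphin precursor of granule cells, was 12.4 to 14.5 CPM against 3.36 to 8.51 CPM, and missed the threshold at an adjusted p of 0.083. The other 11 of 15 were not called, with Npy at -0.12, Sst at -0.05 and Cck at 0.31. None of Penk, Scg2 and Tac2 was called in more than 2 of the 8 fits that left out 1 library.

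Further lower genes encode secreted, matrix and receptor proteins. Pla2g2f, a secreted phospholipase A2, fell 6.86-fold, from 7.17, 7.10 and 7.71 CPM to 0.905, 1.28, 1.09, 0.871 and 1.11 CPM, while the other 5 tested of its family were not called. Grem1, an antagonist of bone morphogenetic proteins, fell 4.88-fold, from 7.07, 11.5 and 8.35 CPM to 2.09, 1.92, 1.24, 1.92 and 2.07 CPM (adjusted p = 0.000933). Cemip, a hyaluronan-binding protein needed for hyaluronan breakdown, was 35.1 to 45.5 CPM against 13.1 to 16.7 CPM, with none of 13 other genes of hyaluronan and perineuronal nets called. Il1r1, the interleukin-1 receptor, which granule cells express strongly, was 18.5 to 24.2 CPM against 7.39 to 10.6 CPM (-1.34 ± 0.13, adjusted p = 0.00121). Fat4, a giant cadherin, was 82.8 to 153 CPM against 44.7 to 57.4 CPM (-1.10 ± 0.12, adjusted p = 0.00379), and Erich5 5.70 to 7.12 CPM against 2.23 to 2.95 CPM.

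The lists of activity-regulated genes, endoplasmic reticulum chaperones, clock genes and glucocorticoid-responsive genes held no called gene over the 8 libraries. Of 20 activity-regulated genes none was called (median 0.08, range -0.68 for Egr2 to 0.69 for Inhba), with Fos at 0.32, Arc at -0.08 and Bdnf at -0.38. At an unadjusted p under 0.05 there were 2 higher, Inhba and Dusp1 (0.35), and 2 lower, Egr2 and Bdnf. Without tTA+ SOR 3, Inhba (0.71, adjusted p = 0.0271) and Bdnf (-0.41, adjusted p = 0.0448) passed, as did the clock gene Per3 (-0.47, adjusted p = 0.0438). The Nr4A family, the target of DN elsewhere in the study, stood at -0.19 for Nr4a1, -0.02 for Nr4a2 and -0.19 for Nr4a3. None of 16 chaperones of the endoplasmic reticulum (median 0.04, all between -0.03 and 0.15), 12 clock genes (median -0.07) or 10 glucocorticoid-responsive genes (median -0.09) was called either.

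Called genes lay next to each other in several places. Within 500 kb between gene starts there were 18 pairs among the 82, 10 of them on chromosome 12 and 8 elsewhere. The chromosome 12 genes were on a list of 6 neighbours of the insertion known from the Camk2a line described above. The labels do not say whether these mice are of that line. Vipr2, a receptor for VIP and PACAP, rose from 0.905, 0.310 and 0.703 CPM to 2.71, 3.40, 3.57, 4.11 and 3.86 CPM, and the 4 genes after it fell by similar amounts. Wdr60, for an intermediate chain of the dynein motor of cilia, was 23.7 to 29.9 CPM against 12.6 to 16.5 CPM (0.522 of the tTA- level). Esyt2, an extended synaptotagmin that tethers membranes, was 137 to 165 CPM against 71.1 to 82.6 CPM (0.517), and Ncapg2, a condensin subunit, 8.03 to 10.5 CPM against 4.00 to 5.59 CPM (0.559). Ptprn2, a protein of dense-core vesicles, was 210 to 238 CPM against 122 to 166 CPM (0.609).

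Beyond these genes none was called. Zfp386, before Vipr2, read 36.6 to 39.3 CPM against 33.7 to 48.1 CPM (0.19 ± 0.12, not called), and past Ptprn2 Rapgef5 stood at 0.20 and Cdca7l at 0.25. None of the 20 other genes tested within 2000 kb on either side was called, against 5 of the 6 on the list. When each of the 8 libraries was left out in turn, Esyt2 was called in 8 fits, Vipr2 in 7, Wdr60 and Ncapg2 in 3 and Ptprn2 in 2. Vipr2 lost its call without tTA- SOR 1 (2.23, adjusted p = 0.0585 by edgeR). Wdr60, Ncapg2 and Ptprn2 lost theirs without any 1 of the tTA- libraries, tTA+ homecage 3 or tTA+ homecage 4, and Ptprn2 also without tTA+ SOR 4, with log2 fold changes from -1.14 to -0.68 over the 8 fits. At an unadjusted p under 0.05 there were 5 of these 20, and 3 of them lay within or beside the run and were lower without overlap: D430020J02Rik (-0.65), Gm10421 (-0.83) and Gm5441 (-0.64). The other 2 were higher. The pseudogene Ighv1-62 was at 0 CPM in each tTA- library and 0.128 to 0.259 CPM in tTA+. Sp8, a transcription factor, was 1.41 to 2.66 CPM against 1.59 to 7.36 CPM (1.03 ± 0.44). Gm10421 and Gm5441 overlap Ptprn2 on the opposite strand. Strand handling was not given, so reads from the shared stretches cannot be assigned with certainty. The peptides and other receptors of the same system, Vip (0.20), Adcyap1 (0.05), Vipr1 (-0.01) and Adcyap1r1 (-0.29), were not called. The list was drawn up with this pattern known, so its counts describe it and give no independent support.

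A second run lay on chromosome 11 and was noticed after its values were seen. Doc2b (mm10 chr11:75768966-75796049, minus strand), Rph3al (chr11:75830999-75938429, minus strand) and Rflnb (chr11:76019194-76027782, minus strand) were all lower. Rph3al, a rabphilin-like protein of regulated exocytosis, read 3.38, 4.62 and 3.02 CPM against 0.689, 1.10, 1.28, 0.871 and 1.09 CPM (-1.92 ± 0.23, adjusted p = 0.00594). Rflnb, a filamin-interacting protein, read 15.3, 13.5 and 14.1 CPM against 7.69, 7.62, 6.90, 7.04 and 6.07 CPM (-0.99 ± 0.12, adjusted p = 0.00594). Gm12339, on the other strand, overlaps Doc2b and starts 1.3 kb from the start of Doc2b. It was at 0.926 CPM in tTA- and 0.265 CPM in tTA+ on average and missed the threshold (edgeR adjusted p = 0.0628). Strand handling was not given, so reads from the shared stretch cannot be assigned to either gene with certainty. Of 32 genes tested within 500 kb of the start of Doc2b, the other 29 were not called: Ywhae on one side stood at -0.02 and Vps53 on the other at 0.03.

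**Figure D4:**
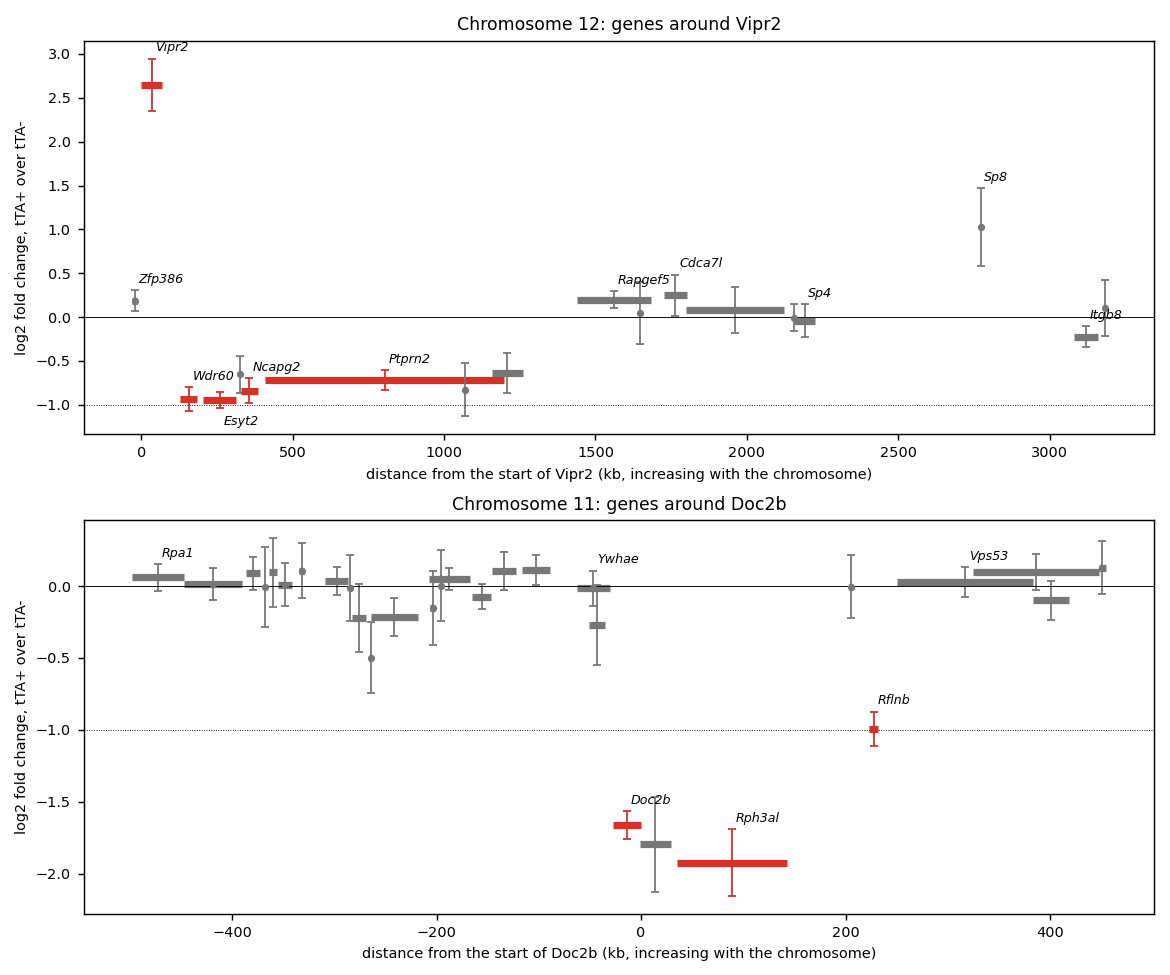
Log2 fold change (bars span the gene, whiskers are 1 SE, red where called) against distance in kb from the start of Vipr2 and of Doc2b, for genes whose 2 group means average at least 0.5 CPM. On chromosome 12 Vipr2 is up at 2.65 and 4 genes beyond it lie between -0.71 and -0.95. Of the genes not called there, D430020J02Rik lies at -0.65, Gm10421 at -0.83, Gm5441 at -0.64 and Sp8 at 1.03. The others shown on chromosome 12 lie between -0.23 and 0.25. On chromosome 11 Doc2b, Rph3al and Rflnb lie at -1.66, -1.92 and -0.99. Of the genes not called there, Gm12339, which overlaps Doc2b, lies at -1.79 and Gm45606 at -0.50. The others shown on chromosome 11 lie between -0.27 and 0.13.

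Upstream sequence is shown for the 2 higher and 2 lower genes with the smallest p that had a RefSeq entry and a window clear of annotated exons. Genes of 1 chromosome were not considered for display. Each is the 250 bases before the RefSeq start on GRCm38.p6, from 5′ to 3′ on the gene's strand: Car4 at chr11:84957504-84957753 (plus), Chrm5 at chr2:112480818-112481067 (minus), C1ql2 at chr1:120340332-120340581 (plus) and Cemip at chr7:84086506-84086755 (minus). Capitals mark CANNTG, the core read by basic helix-loop-helix factors, which is the same on both strands.
Car4: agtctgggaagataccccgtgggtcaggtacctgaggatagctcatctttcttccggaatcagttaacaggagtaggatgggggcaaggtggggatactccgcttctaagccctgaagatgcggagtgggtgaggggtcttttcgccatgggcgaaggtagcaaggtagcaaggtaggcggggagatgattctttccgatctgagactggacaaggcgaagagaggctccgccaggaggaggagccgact
Chrm5: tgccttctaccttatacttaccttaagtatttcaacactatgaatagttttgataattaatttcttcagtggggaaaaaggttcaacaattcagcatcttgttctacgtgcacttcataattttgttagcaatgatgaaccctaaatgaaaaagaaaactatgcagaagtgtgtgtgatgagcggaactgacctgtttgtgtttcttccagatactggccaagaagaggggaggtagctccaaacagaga
C1ql2: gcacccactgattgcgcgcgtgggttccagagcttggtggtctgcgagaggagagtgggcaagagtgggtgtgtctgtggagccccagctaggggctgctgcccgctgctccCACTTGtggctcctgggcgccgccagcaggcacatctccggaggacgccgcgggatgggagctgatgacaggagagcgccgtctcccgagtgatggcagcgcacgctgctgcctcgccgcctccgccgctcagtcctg
Cemip: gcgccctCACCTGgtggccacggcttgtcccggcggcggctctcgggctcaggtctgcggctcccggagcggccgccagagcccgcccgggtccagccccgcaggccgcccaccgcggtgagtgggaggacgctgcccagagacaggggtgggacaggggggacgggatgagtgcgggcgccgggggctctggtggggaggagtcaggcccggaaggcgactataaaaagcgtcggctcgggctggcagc
Both lower genes held 1 such match and both higher genes none. The match is common, however: 64.3% of the 42 genes called lower with an entry, 68.4% of the 19 called higher and 63.8% of 13402 genes tested held at least 1. TGACG, the core of cyclic AMP response elements, was searched on both strands and was in none of the 4 windows. It was in 26.2% of lower, 15.8% of higher and 27.7% of all genes tested with an entry. Neither promoter activity nor any site of binding was measured.

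No difference in the tTA effect between exposures was detectable. The interaction of tTA with exposure gave 0 calls (0%) by edgeR, with 482 genes at an unadjusted p under 0.05, and limma-voom also gave 0. It rests on the single tTA- SOR library, which limits what it can show. For C1ql2 the log2 fold change was -2.32 in homecage and -2.03 in SOR libraries, and for Car4 1.71 and 1.83. Of the 82 genes, 5 had an unadjusted interaction p under 0.05, among them Vipr2 (2.24 in homecage, 3.42 in SOR) and Fat4 (-1.31 and -0.82). For H60b the values were 6.28 and 4.48.

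Within the homecage, where 2 tTA+ libraries faced 2 tTA- libraries, the spread was smaller and more genes were called: 432 higher (1.91%) and 512 lower (2.26%) of 22617 tested, including all 82. The biological coefficient of variation was 0.0742 there and 0.166 over all 8 libraries. Further members of the lists passed the test in these 4 libraries. Prox1 joined the lower dentate markers (-0.79 ± 0.08, adjusted p = 0.00115), making 7 of 12, and Pdyn fell by 1.16 (adjusted p = 0.00225). Bdnf, a neurotrophin, was at -0.54 ± 0.08 (adjusted p = 0.00463) and Nr4a3 at -0.41 ± 0.08 (adjusted p = 0.0206), while Inhba, an activin subunit on the same list of activity-regulated genes, was at 0.60 ± 0.13 (adjusted p = 0.0297). Syt7 fell by 0.59 and the glutamate receptor genes Grik2 and Grm2 by 0.47 and 0.49, while Grm8 rose by 0.69. The potassium channel genes Kcna4, Kcnc4, Kcnj9 and Kcnk9 fell by 0.36, 0.39, 0.44 and 0.51, and the clock genes Per3 and Cry2 by 0.56 and 0.39. Cplx2, Nptx1, Cemip2 and Car12 fell by 0.33, 0.56, 0.43 and 0.92. The GABA-A receptor genes Gabra3 and Gabrg1 rose by 0.45 and 0.56, and Htr7 by 0.61. Cell type markers also passed here: Gad2 of interneurons rose by 0.45, Aqp4 and Gja1 of astrocytes by 0.30 and 0.27, Nts of neocortex and subiculum by 0.63, and Slc17a6 and Prkcd of the thalamus by 0.50 and 0.64, opposite to Ntng1. Rgs14 of CA2 fell by 0.33 and Lpl of activated microglia by 0.43. Of the neurogenesis genes Eomes and Igfbpl1 rose by 1.53 and 1.23 and Mki67 fell by 0.76. The blood markers Hba-a1 and Hbb-bs, which give the blood left in the tissue, were higher by 0.58 and 0.73, and Kl, of the choroid plexus list, was lower by 1.09; their part in these calls was not tested. Without tTA+ SOR 3, the shallowest library, 86 genes were called higher (0.377%) and 204 lower (0.894%), again with all 82 among them. Beside Inhba, Bdnf and Per3, the list members that passed there but not over 8 libraries were Igfbpl1, Doc2a and Grin3a, higher by 1.003, 0.75 and 0.41, and Pdyn, Syt7, Grik2, Kcnj9 and Rgs14, which fell by 1.43, 0.52, 0.41, 0.36 and 0.35.

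Levels in experiment 1 lay on the tTA+ side. On a common scale of 19 libraries, the 6 control libraries of experiment 1 lay beyond all 3 tTA- libraries, in the direction of tTA+, for 81 of the 82 genes, and all 11 did for 79. The exceptions over 11 libraries were Tnfrsf25, Rab26 and Gm43327. C1ql2 was 83.1 to 95.7 CPM in tTA- and 16.1 to 27.4 CPM in tTA+ libraries of experiment 2, and 12.5 to 16.7 CPM in controls and 9.09 to 17.6 CPM in DN libraries of experiment 1. Rph3al was 3.07 to 4.75, 0.699 to 1.34, 1.14 to 1.401 and 1.27 to 1.71 CPM in the same order. H60b was at most 0.17 CPM in tTA- libraries and at least 2.33 CPM in every tTA+ library of either experiment. Over all 22904 genes tested, 11.4% had the 6 controls and 8.28% all 11 libraries beyond the same 3 tTA- libraries on that side. The 82 genes were chosen by those tTA- libraries, and both experiments hold tTA+ SOR mice without DN but were separate, so the levels are set side by side without a test.

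**Figure D5:**
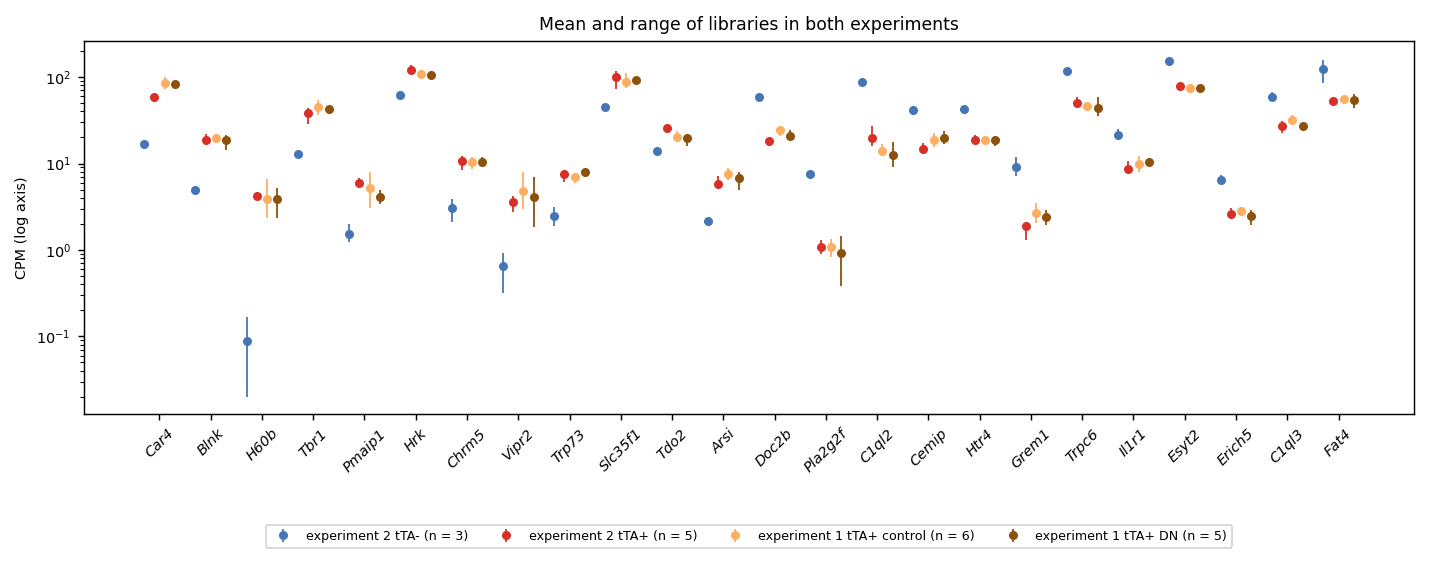
Mean CPM on a log axis, with the range of libraries, of the 24 genes in the 4 groups, scaled over 19 libraries; a range that reaches 0 (H60b in tTA-) is drawn to 0.02. For each gene the ranges of the 3 tTA+ groups lie clear of the range of the tTA- group in blue, but the 3 differ among themselves for some genes: Car4 was 51.3 to 64.2 CPM in experiment 2 tTA+ and 73.2 to 101 CPM in experiment 1 controls, and the mean of Tdo2 was 25.6 CPM in experiment 2 tTA+, 20.1 and 19.9 CPM in experiment 1 and 14.1 CPM in tTA-.

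Limits of the comparison are its 3 tTA- libraries. Of the 36 named genes that were called, 10 stayed called in all 8 fits that left out 1 library (Car4, Blnk, H60b, Pmaip1, Doc2b, Pla2g2f, C1ql2, Cemip, Esyt2 and Fat4), and without tTA- SOR 1 only 10 genes in all were called.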

How the data were processed

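RNA from dorsal hippocampus was sequenced after extraction with Trizol and TruSeq preparation with Ribo-Zero Gold, per the labels' protocols. The authors deposited whole-number counts per gene, 51789 versioned Ensembl identifiers; STAR, SAMtools 1.6, featureCounts 1.4.4 and build mm10 are named in the submitters' processing notes. Annotation, strand and multimapping settings were not given in the sources used here, so overlapping genes and near-identical copies are uncertain. GENCODE M21 held 51596 of the identifiers.

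Counts of the 8 libraries of experiment 2 were filtered (filterByExpr by tTA), TMM-scaled and tested with edgeR 4.0.16 (glmQLFit, robust, two-sided, R 4.3.3), with exposure and tTA in the model and calls at an adjusted p under 0.05. Within each group, libraries differed beyond counting noise (chi-square per degree of freedom 4.77 to 73.4, genes with at least 20 counts). The code was tested on simulated data.

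Named genes were, among called genes whose groups did not overlap, the 12 higher and 12 lower with the lowest p, all chromosome 12 list members, and called members of 40 lists. Members and lists were chosen with earlier results of these data known. Alternatives were other scalings, filters, tools (DESeq2 1.42.0, limma 3.58.1, sva 3.50.0), covariates, subsets and each library left out. The values of some list members are not reported here.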

Additional observations from a re-analysis of the deposited data

Results flagged for a closer look

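The 79 items searched were total counts, genes detected, gene levels and summed list levels. In 10 of them, 1 of the 5 tTA+ libraries stood far from the other 4, with a gap above 0.71 of the group's range. A share of such flags arises by chance (about 5% of groups at the 95% level used). Of the 10, 8 were in tTA+ SOR 3, the library with the fewest counts. It was lowest for Grem1 (1.24 CPM), Glis3 (16.6 CPM) and the summed GABA-A receptor genes (1548 CPM). It was highest for Tac2 (5.99 CPM) and for the summed markers of CA2 (277 CPM), CA3 (351 CPM) and reactive astrocytes (784 CPM) and the neuropeptide list (2294 CPM). The other 2 were in tTA+ SOR 2, which was highest for Il1r1 (10.6 CPM) and for the choroid plexus markers (2191 CPM).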

How the results depend on the processing

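No count or named gene reversed. List medians, none of which was tested, changed sign in 96 of 839 comparisons with an alternative, and in 55 moved by more than the spread between libraries. Fold changes of named genes kept direction and call in 650 comparisons with an alternative and lost the call in 163; the cause was not tested. The filter of at least 10 counts in every library tested 75 of the 82 genes. Counts of called genes, in all, higher and lower, were 133, 39 and 94 at an adjusted p under 0.1; 265, 82 and 183 with no filter on low counts; 255, 77 and 178 by DESeq2; 366, 122 and 244 with all 19 libraries in 1 fit; 287, 87 and 200 with 1 surrogate variable; and 944, 432 and 512 in homecage libraries only. SOR libraries only, 3 against 1 with the spread taken from tTA+, gave 0 calls in all 5 counts, with 234 genes at an unadjusted p under 0.05. Leaving out 1 library gave 10 to 290 calls, 4 to 86 higher and 6 to 204 lower; dentate genes called lower were 1 to 7 and chromosome 12 genes 1 to 4. Fewest came without tTA- SOR 1 (10); 22 to 25 came without any 1 homecage library (9 higher each; 24 calls and 15 lower without tTA- homecage 1 or tTA+ homecage 3, 25 and 16 without tTA- homecage 2, 22 and 13 without tTA+ homecage 4), 55 without tTA+ SOR 4 (16 higher), 107 without tTA+ SOR 2 and 290 without tTA+ SOR 3. The other scalings moved the median of all genes by at most 0.028.

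With the title number as a replicate block, edgeR called 0 genes in all, higher, lower, dentate and chromosome 12, with 389 at an unadjusted p under 0.05. Only number 2 joins both genotypes, and its libraries deviated together (correlation 0.382), while those of numbers 1, 3 and 4 did not (-0.498, -0.206 and 0.00862). The labels do not say what a number marks, so the numbers were not taken as pairs.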

Other observations

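Other called genes, outside the lists and chosen here after their values were seen, are given with what each is known for. Ghsr, the ghrelin receptor, was 1.17 to 1.28 CPM in tTA- and 0.259 to 0.498 CPM in tTA+ libraries, and fell by 1.65 on the log2 scale (edgeR adjusted p = 0.0242). Il20rb, a receptor subunit of the interleukin-20 family, fell by 1.26, and Jag1, a Notch ligand, by 0.68. Mcm6, a subunit of the replicative helicase, was 32.0 to 35.01 CPM against 15.5 to 21.4 CPM and fell by 0.92. Mylk3, a myosin light chain kinase known from heart muscle, was 5.49 to 7.31 CPM against 0.916 to 2.52 CPM and fell by 2.41. On the higher side, Bace2, a homologue of the beta-secretase Bace1, was 1.47 to 1.88 CPM against 3.84 to 5.42 CPM and rose by 1.35. Gng4, a G protein gamma subunit, rose by 0.87, Syndig1, a protein associated with AMPA receptors, by 0.54, and Tex15, known from meiosis, by 1.49.

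Other neighbouring called genes moved the same way. Cc2d2b and Blnk, 246 kb apart on chromosome 19, rose by 2.22 and 1.88. Efcab6 and Parvg, 259 kb apart on chromosome 15, fell by 1.12 and 0.79. B230110G15Rik, an antisense transcript across part of Lmo3, and Gm44266 on chromosome 6 fell by 2.34 and 2.62 and reached no more than 1.34 and 1.08 CPM in any library.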
